A study of Mus musculus with 32 samples.

Results

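Layer markers of deep cortical neurons were followed in the frontal cortex of 32 mice that had received gut microbiota from humans, squirrel monkeys or macaques. The set held 10 genes of 23958 in the table of counts, chosen by name as genes used to mark neurons of layers 5, 6 and 6b, and all 10 had a row. The genes were Fezf2, Bcl11b and Etv1 for layer 5, Tbr1, Tle4, Foxp2 and Syt6 for layer 6, and Ccn2, Nxph3 and Nxph4 for layer 6b and the lower part of layer 6. Of these, 9 had enough counts to be tested and Nxph4 did not.

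The tissue was the prelimbic and infralimbic part of the mouse frontal cortex, measured in bulk. The labels give 12 mice with the microbiota of humans (Homo sapiens; batches A and B, 4 and 8 mice), 8 with that of squirrel monkeys (Saimiri boliviensis; batches C and D, 4 mice each) and 12 with that of macaques (Macaca mulatta; batches E and F, 5 and 7 mice). Every mouse was inoculated with a primate microbiota, and the labels used here name no strain, sex, age, housing or number of donors. Macaque served as the group against which the others were set. Each batch held 1 donor species, and libraries of different donors lay in different plate columns, so donor, batch and plate column cannot be told apart. Nothing in the labels ties mice to separate cages or litters, so p-values measure only the spread between these mice. Total counts per mouse were 1204598 to 2089308 for human, 1193113 to 1588716 for squirrel monkey and 1035036 to 1673882 for macaque. Cortical markers were present in every mouse, with a sum over 7 excitatory neuron genes of 3270 to 5180 CPM in human, 3610 to 4160 CPM in squirrel monkey and 3990 to 4930 CPM in macaque mice. CPM are counts scaled by library size and TMM factor. Of the 7 excitatory neuron genes, Neurod6, Slc17a7 and Slc17a6 differed over any donor group (edgeR adjusted p = 0.00649, 0.0273 and 0.039), against 6.15% of all genes tested. Against macaque 1 of the 7 was higher and 1 lower for human, and 0 were higher and 1 lower for squirrel monkey.

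In the mammalian neocortex, layer 5 holds neurons that project to the brainstem, the spinal cord and the striatum, and layer 6 holds neurons that project to the thalamus. Layer 6b, the thin sheet above the white matter, holds neurons that survive from the embryonic subplate. In mice Fezf2, a zinc finger repressor, and its downstream factor Bcl11b (also called Ctip2) specify subcerebral projection neurons, while Tbr1, a T-box factor, represses Fezf2 in layer 6 and specifies corticothalamic neurons. Most of these genes stay on in the adult cortex and serve as layer markers there, although Bcl11b is also strong in interneurons and in striatal neurons.

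RefSeq promoter windows of build GRCm38.p6, from 250 bases before to 50 bases after a start, were matched for 6 of the 10 genes (Bcl11b, Fezf2, Tle4, Tbr1, Etv1 and Syt6). Those of 3 layer 6 genes that varied together between mice are shown, 5′ to 3′ on the strand of the gene, with capitals marking AGGTGT or its reverse complement ACACCT, the core that T-box factors such as Tbr1 bind. Tle4 lies at chr19:14598134-14598433 on the minus strand, Tbr1 at chr2:61804203-61804502 on the plus strand and Syt6 at chr3:103574995-103575294 on the plus strand.
Tle4: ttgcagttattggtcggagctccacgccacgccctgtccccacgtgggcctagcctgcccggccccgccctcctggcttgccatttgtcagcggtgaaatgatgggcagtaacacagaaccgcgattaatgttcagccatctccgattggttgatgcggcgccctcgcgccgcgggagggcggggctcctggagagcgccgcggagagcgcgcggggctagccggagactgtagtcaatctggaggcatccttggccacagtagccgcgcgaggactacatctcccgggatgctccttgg
Tbr1: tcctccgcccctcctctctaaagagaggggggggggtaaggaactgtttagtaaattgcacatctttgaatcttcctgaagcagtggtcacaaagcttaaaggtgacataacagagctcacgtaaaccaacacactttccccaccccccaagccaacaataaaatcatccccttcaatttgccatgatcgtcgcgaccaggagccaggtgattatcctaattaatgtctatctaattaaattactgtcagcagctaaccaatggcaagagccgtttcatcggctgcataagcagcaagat
Syt6: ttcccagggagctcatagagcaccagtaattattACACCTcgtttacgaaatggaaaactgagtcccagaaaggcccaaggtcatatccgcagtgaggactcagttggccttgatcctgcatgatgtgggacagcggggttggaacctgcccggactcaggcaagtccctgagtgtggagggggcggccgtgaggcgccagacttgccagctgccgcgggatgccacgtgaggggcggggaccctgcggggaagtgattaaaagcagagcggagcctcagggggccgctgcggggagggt
Tle4, Etv1 and Syt6 had windows for more than 1 start, and the first listed is shown for Tle4 and Syt6. The core was found once in the Syt6 window shown, 216 bases before that start. It was in no other window of the 6 genes, and so not in those of the other Syt6 starts. It stood in 13.7% of the 32851 promoter windows of the genome, so these letters are common.

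Of the 9 tested markers, Nxph3 alone passed the test between donor groups, with higher levels under human and squirrel monkey than under macaque microbiota. It encodes neurexophilin 3, a secreted ligand of α-neurexins that is made by a subset of layer 6b and other deep layer neurons. It passed the test over any donor group (edgeR quasi-likelihood F-test, adjusted p = 0.00202), as 1 of 9 tested markers against 6.15% of all 12651 tested genes, and it did so with any 1 mouse left out (adjusted p = 0.000301 to 0.00533) but not without batch F (adjusted p = 0.157). For human against macaque 1 of 9 was higher and 0 were lower, against 4.47% and 3.54% of all genes (8.01% in either direction). For squirrel monkey against macaque 1 of 9 was higher and 0 were lower, against 0.387% and 0.253% of all genes (0.64% in either direction). For human against squirrel monkey 0 of 9 passed, against 0.0158% of all genes higher and 0.119% lower (0.134% in all), with 2 at an unadjusted p under 0.05 (Fezf2 and Etv1). Of all 12651 genes, 1267 had such an unadjusted p in this comparison. A call needed a Benjamini-Hochberg adjusted p under 0.05 over all 12651 genes. The comparisons with macaque share the macaque mice.

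**Figure D1:**
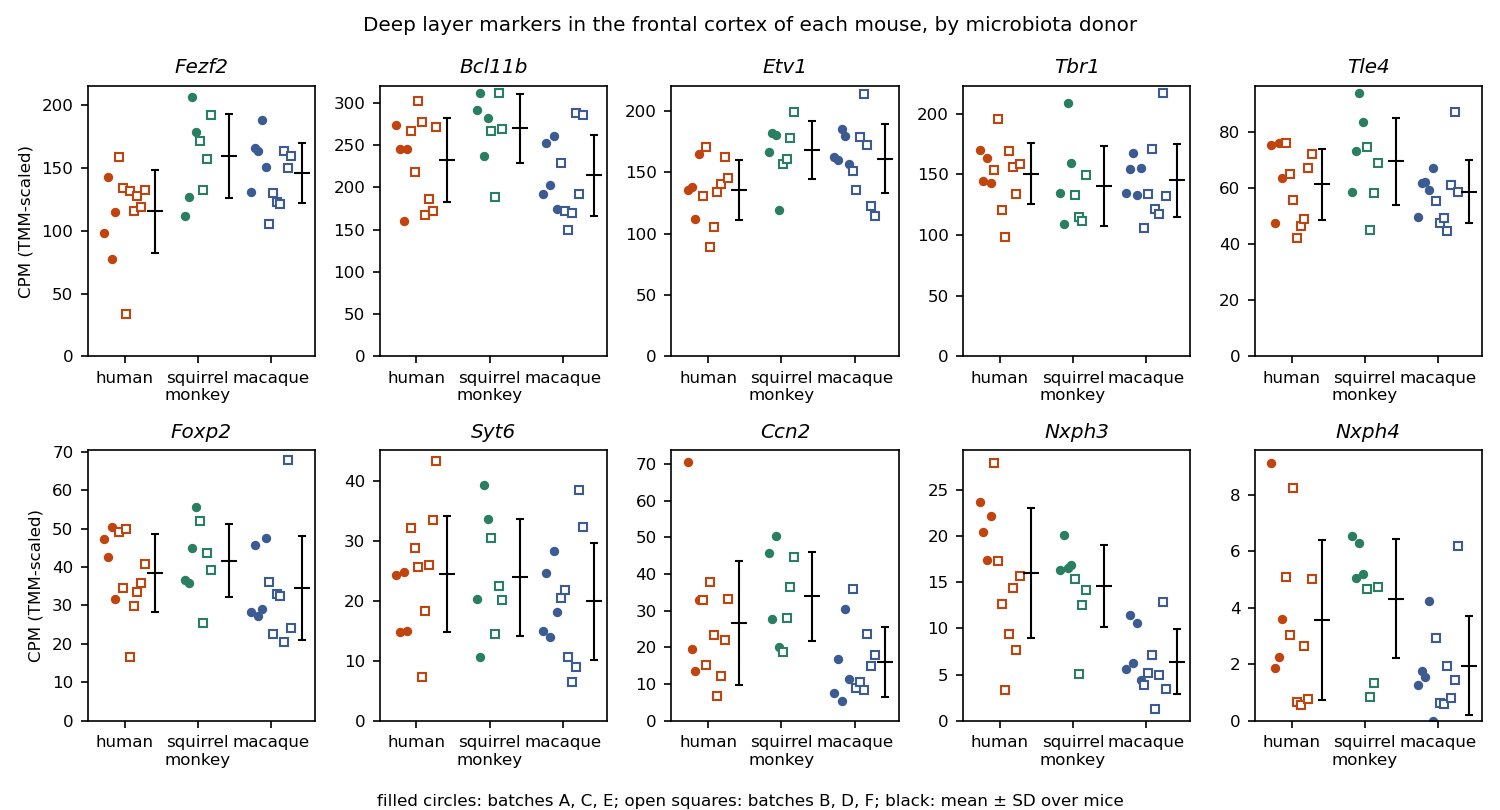
Levels in CPM of the 10 genes in each of 32 mice, with human, squirrel monkey and macaque donors from left to right, batches as filled circles (A, C, E) or open squares (B, D, F), and black bars for the mean ± SD. In the Nxph3 panel 8 of 12 human and 6 of 8 squirrel monkey mice lie above the highest macaque mouse, and the ranges of the groups overlap in every panel.

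Nxph3 had a lowest, median and highest level of 3.34, 16.5 and 27.9 CPM in human mice, 5.1, 15.8 and 20.1 CPM in squirrel monkey mice, and 1.3, 5.39 and 12.8 CPM in macaque mice. These rest on 5 to 44, 6 to 32 and 2 to 18 counts per mouse. The ranges overlapped, but 8 of 12 human and 6 of 8 squirrel monkey mice lay above every macaque mouse. Means were 16 ± 7.07 CPM (SD, n = 12) with human, 14.6 ± 4.43 CPM (n = 8) with squirrel monkey and 6.41 ± 3.5 CPM (n = 12) with macaque microbiota. The log2 fold change was 1.32 ± 0.26 (SE) for human against macaque (adjusted p = 0.000831) and 1.21 ± 0.29 for squirrel monkey against macaque (adjusted p = 0.0365). The human and squirrel monkey groups differed by 0.11 ± 0.26 (adjusted p = 0.934). The gene passed the filter on low counts through the groups where it is high, since 11 of 12 human, 7 of 8 squirrel monkey and 4 of 12 macaque mice lay above the filter level of 6.52 CPM.

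Nxph3 was also compared between batches of the same donor. Batch A averaged 20.9 ± 2.73 CPM (SD, n = 4) and batch B 13.5 ± 7.39 CPM (n = 8), a log2 difference of 0.65 ± 0.30 that did not pass (unadjusted p = 0.0388, adjusted p = 0.405). Batches C and D averaged 17.5 and 11.8 CPM, and batches E and F averaged 7.66 and 5.51 CPM. Each of the 4 human and squirrel monkey batch means lay above both macaque batch means. The same was true of Bcl11b, Foxp2, Ccn2 and Nxph4, none of which passed a test between donors in the main fit. How many of all genes do so was not computed, so the order of batch means cannot be read as particular to these markers. Of the 9 tested markers, 0 passed between A and B, between C and D, or between E and F, where edgeR called 0.0237% (all lower in A), 0% and 0% of all genes, and unadjusted p was under 0.05 for 1, 0 and 0 markers. The 1 marker was Nxph3.

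The human call of Nxph3 held with any 1 mouse left out (log2 fold change 1.21 to 1.46). It was lost without batch F, the larger macaque batch (1.08, adjusted p = 0.0734). The squirrel monkey call rested on single libraries: leaving out squirrel monkey mouse 1, 2, 3, 4, 7 or 8, or macaque mouse 1, 3, 5, 7, 8, 9 or 12, ended it, with adjusted p of 0.0523 to 0.113 and log2 fold changes of 1.10 to 1.24. It also ended without batch C (0.91, adjusted p = 0.493), E (1.40, adjusted p = 0.099) or F (0.98, adjusted p = 0.317).

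Ccn2 and Nxph4, the other layer 6b markers, had higher means with human and squirrel monkey than with macaque microbiota. Ccn2 did not pass in the main fit, and Nxph4 was not tested there. Ccn2 encodes connective tissue growth factor, a secreted matrix protein that marks layer 6b in the mouse cortex. Its lowest, median and highest levels were 6.66, 22.7 and 70.5 CPM in human mice, 18.6, 32.2 and 50.4 CPM in squirrel monkey mice, and 5.44, 13.1 and 36 CPM in macaque mice. The ranges overlapped, although 10 human mice and each of the 8 squirrel monkey mice exceeded the median of macaque mice. The log2 fold change of Ccn2 was 0.78 ± 0.29 for human against macaque (adjusted p = 0.0912), 1.12 ± 0.32 for squirrel monkey against macaque (adjusted p = 0.0824) and -0.34 ± 0.29 for human against squirrel monkey (adjusted p = 0.757). The highest human value came from mouse 1 of batch A (70.5 CPM); the next was 37.7 CPM.

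Ccn2 lay near the threshold against macaque, and single libraries, a batch or other settings moved it across. It passed for human against macaque without human mouse 9 (0.88, adjusted p = 0.0415) or macaque mouse 6 (0.92, adjusted p = 0.0398). It passed for squirrel monkey against macaque without human mouse 1, macaque mouse 4 or macaque mouse 6 (adjusted p = 0.0448, 0.0494 and 0.0372). Of 6 fits without a batch, Ccn2 passed in 1 for human (adjusted p = 0.0352) and 1 for squirrel monkey (adjusted p = 0.0478). Of 15 other alternatives it passed in 2 for human and 3 for squirrel monkey, with lowest adjusted p of 0.0123 and 0.00537. With the myelin score of each mouse as a covariate, the Ccn2 difference was 0.34 ± 0.24 for human against macaque and 0.71 ± 0.25 for squirrel monkey against macaque (adjusted p = 0.456 and 0.298).

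Nxph4, another neurexophilin and a layer 6b marker, had 154 counts in all mice together and was below the filter. Its lowest, median and highest levels were 0.555, 2.85 and 9.11 CPM in human mice, 0.85, 4.88 and 6.52 CPM in squirrel monkey mice, and 0, 1.49 and 6.19 CPM in macaque mice. Fitted without the filter, its log2 fold changes were 0.90 ± 0.42 for human against macaque and 1.15 ± 0.46 for squirrel monkey against macaque (adjusted p = 0.267 and 0.355). It had 0 to 17 counts per mouse.

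**Figure D2:**
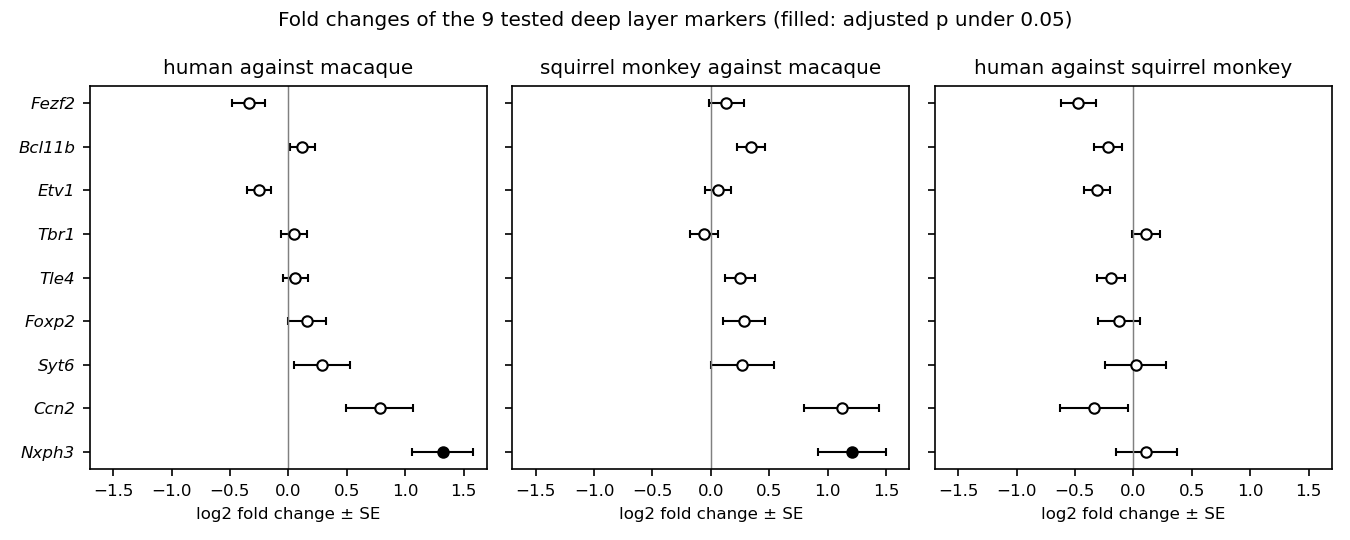
Log2 fold changes ± SE of the 9 tested markers for human against macaque, squirrel monkey against macaque and human against squirrel monkey, with filled points for an adjusted p under 0.05. Nxph3 is the 1 filled point in each macaque comparison, at 1.32 and 1.21, and Ccn2 follows at 0.78 and 1.12.

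The layer 5 markers did not pass in any comparison of the main fit. In 1 of 15 other alternatives Fezf2 passed for human against macaque (adjusted p = 0.0285). Bcl11b passed in 1 of 15 for squirrel monkey against macaque (adjusted p = 0.0154). Fezf2 had a lowest, median and highest level of 33.4, 123 and 158 CPM in human mice, 112, 164 and 206 CPM in squirrel monkey mice, and 105, 150 and 188 CPM in macaque mice. The ranges overlapped, but just 1 of 12 human mice exceeded the median of macaque mice and 0 of 12 that of squirrel monkey mice. The log2 fold change of Fezf2 was -0.34 ± 0.14 for human against macaque (unadjusted p = 0.0189, adjusted p = 0.123) and -0.47 ± 0.15 for human against squirrel monkey (unadjusted p = 0.00367, adjusted p = 0.205). Squirrel monkey against macaque gave 0.13 ± 0.15 (adjusted p = 0.772).

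Etv1, an ETS factor of layer 5 neurons, also had its lowest median in human mice. Its lowest, median and highest levels were 89, 137 and 171 CPM in human mice, 120, 173 and 200 CPM in squirrel monkey mice, and 114, 162 and 214 CPM in macaque mice. The median of macaque mice was exceeded by 3 of 12 human mice and that of squirrel monkey mice by 0 of 12. Etv1 differed by -0.25 ± 0.10 for human against macaque (adjusted p = 0.105), by 0.06 ± 0.11 for squirrel monkey against macaque (adjusted p = 0.865) and by -0.31 ± 0.11 for human against squirrel monkey (adjusted p = 0.258).

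Human mouse 7 had the lowest Fezf2 (33.4 CPM) and Etv1 (89 CPM) of all 32 mice, and its sum over 12 other layer 5 genes was also the lowest, at 687 CPM. In this mouse Bcl11b, also a layer 5 marker, ranked 3 of 32 at 302.5 CPM, the highest of the human mice. The same mouse had the highest sum over 14 striatal neuron genes, 983 CPM, against 194 to 355 CPM in the other mice. Without it the human against macaque difference was -0.25 ± 0.10 for Fezf2 and -0.20 ± 0.09 for Etv1 (adjusted p = 0.15 and 0.187). Over the groups the striatal sum ran from 226 to 983 CPM in human (median 263), 242 to 306 CPM in squirrel monkey (median 266) and 194 to 355 CPM in macaque mice (median 235). All 7 tested striatal genes had positive fold changes for human against macaque, with a median of 0.41, and 1 passed. For squirrel monkey against macaque 5 of the 7 were positive, with a median of 0.18, and 0 passed. Of the defining striatal markers, Adora2a was at 0 in 5 of 12 human, 3 of 8 squirrel monkey and 10 of 12 macaque mice, and Drd2 at 0 in 1, 2 and 4 mice of these groups. With the striatal score as a covariate the human against macaque difference was -0.15 ± 0.13 for Fezf2 and -0.12 ± 0.10 for Etv1 (adjusted p = 0.602 and 0.551).

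Bcl11b showed another order, with the highest median in squirrel monkey mice. Its lowest, median and highest levels were 160, 245 and 302 CPM in human mice, 188, 276 and 312 CPM in squirrel monkey mice, and 150, 197 and 288 CPM in macaque mice. Of the squirrel monkey mice, 7 of 8 lay above the macaque median, and the ranges overlapped. The log2 fold change of Bcl11b was 0.34 ± 0.12 for squirrel monkey against macaque (unadjusted p = 0.00883, adjusted p = 0.2), 0.12 ± 0.11 for human against macaque (adjusted p = 0.552) and -0.22 ± 0.12 for human against squirrel monkey (adjusted p = 0.58).

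The layer 6 markers Tbr1, Tle4, Foxp2 and Syt6 did not pass in any comparison, and their group means lay within the spread between mice. Tbr1 averaged 151 ± 25.2 CPM (SD, n = 12) in human, 140 ± 33 CPM (n = 8) in squirrel monkey and 145 ± 30.1 CPM (n = 12) in macaque mice. Its 3 log2 fold changes were 0.05 ± 0.11 for human against macaque, -0.06 ± 0.12 for squirrel monkey against macaque and 0.11 ± 0.12 for human against squirrel monkey (adjusted p = 0.828, 0.888 and 0.831). The ranges ran from 98.8 to 196 CPM in human, 110 to 209 CPM in squirrel monkey and 106 to 217 CPM in macaque mice, and overlapped almost wholly.

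Tle4, a Groucho corepressor that marks corticothalamic neurons, averaged 61.3 ± 12.7 CPM in human, 69.4 ± 15.4 CPM in squirrel monkey and 58.7 ± 11.3 CPM in macaque mice. The Tle4 difference was 0.06 ± 0.11 for human against macaque and 0.25 ± 0.13 for squirrel monkey against macaque (adjusted p = 0.814 and 0.385). Foxp2, a forkhead factor of layer 6 that also marks striatal and thalamic neurons, averaged 38.5 ± 10.1, 41.7 ± 9.57 and 34.5 ± 13.5 CPM in human, squirrel monkey and macaque mice. Foxp2 differed by 0.16 ± 0.16 for human and by 0.28 ± 0.18 for squirrel monkey, each against macaque (adjusted p = 0.605 and 0.537).

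Syt6, a synaptotagmin found in layer 6 corticothalamic neurons of the mouse, averaged 24.5 ± 9.7 CPM in human, 24 ± 9.79 CPM in squirrel monkey and 19.9 ± 9.75 CPM in macaque mice. The Syt6 difference was 0.29 ± 0.24 for human and 0.27 ± 0.27 for squirrel monkey, each against macaque (adjusted p = 0.499 and 0.72). The last 1000 bases of Syt6 overlap exons of Atg4a-ps on the opposite strand, and the use of strand in counting is not given in the sources used here, so reads of this gene are uncertain.

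Over all 9 tested markers the median log2 fold change was 0.12 for human against macaque, 0.27 for squirrel monkey against macaque and -0.19 for human against squirrel monkey. Over all 12651 genes these medians were 0, 0 and 0.01. Positive values were seen for 7, 8 and 3 of the 9 markers. In a bulk sample, fewer cells of a type and less RNA per cell cannot be told apart.

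Other genes of the same layers were read from lists chosen by name. Of 11 tested genes for layer 5 and 10 for layer 6, 0 passed in any of the 3 edgeR comparisons, with 3 and 1 at an unadjusted p under 0.05 for human against macaque, 3 and 2 for squirrel monkey against macaque, and 1 and 0 for human against squirrel monkey. Over all 12651 genes, 2918, 1667 and 1267 had an unadjusted p under 0.05 in these 3 comparisons. In the test over any donor group Deptor, an mTOR-binding protein of layer 5 neurons, and Sla, a Src-like adaptor protein, passed (adjusted p = 0.033 and 0.0469). Deptor averaged 40.8 CPM in human, 33 CPM in squirrel monkey and 52.3 CPM in macaque mice. Sla averaged 15.8, 20.6 and 11.1 CPM in those groups. Deptor kept this call in 21 and Sla in 10 of the 32 fits that left out 1 mouse.

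Among 6 tested genes of the other layer 6b list, 1 was higher with human and 1 with squirrel monkey microbiota against macaque, and all 6 fold changes were positive in both comparisons, with medians of 0.29 and 0.39. Cplx3, a complexin of subplate-derived neurons, averaged 12 ± 5.55 CPM in human, 10 ± 4.96 CPM in squirrel monkey and 6.49 ± 3.24 CPM in macaque mice. It differed by 0.90 ± 0.26 for human (adjusted p = 0.0234) and by 0.64 ± 0.30 for squirrel monkey (adjusted p = 0.347), each against macaque. The macaque mean of Cplx3 lay just under the filter level of 6.52 CPM, and its means in the other groups lay above that level. Nr4a2, an orphan nuclear receptor that marks layer 6b and the claustrum, averaged 28.8 ± 8.8 CPM in human, 35.5 ± 8.88 CPM in squirrel monkey and 20.3 ± 8.38 CPM in macaque mice. It differed by 0.54 ± 0.18 for human (adjusted p = 0.0626) and by 0.84 ± 0.20 for squirrel monkey (adjusted p = 0.0324). Between human and squirrel monkey 0 of the 6 passed, with 1 at an unadjusted p under 0.05, against 1267 of all 12651 genes.

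Both of these pairwise calls were lost without single libraries or batches, while the fold changes stayed positive. Cplx3 did not pass without human mouse 1 or 7 (0.77 and 0.76, adjusted p = 0.0537 and 0.0624). Nr4a2 did not pass without squirrel monkey mouse 1, 2, 4, 7 or 8 or macaque mouse 1, 3, 5, 8, 9 or 12, with the highest adjusted p (0.107) without squirrel monkey mouse 2, while its fold change was 0.76 to 0.95 with any 1 mouse left out. Cplx3 was also lost without batch A, E or F (adjusted p = 0.101, 0.104 and 0.185), and Nr4a2 without batch C, D, E or F (adjusted p = 0.369, 0.117, 0.0816 and 0.282). Over any donor group Nr4a2 passed (edgeR adjusted p = 0.019) and kept that call in 32 of the 32 fits that left out 1 mouse, but not without batch C, D, E or F (adjusted p = 0.0651, 0.0502, 0.0555 and 0.215). With the myelin score as a covariate the difference was 0.63 ± 0.25 for Cplx3 in human mice and 0.63 ± 0.18 for Nr4a2 in squirrel monkey mice (adjusted p = 0.126 and 0.144).

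Nxph1, Nxph2 and Nrxn3 were read beside Nxph3. Nxph1, which is made by interneurons, averaged 33.8 ± 3.69 CPM in human, 33.7 ± 5.19 CPM in squirrel monkey and 34.6 ± 3.79 CPM in macaque mice, and none of its comparisons passed (adjusted p = 0.857 to 0.999). Nxph2 averaged 3.08, 2.17 and 3.01 CPM and was below the filter. Nrxn3, a neurexin receptor gene, averaged 438 ± 52.4, 422 ± 59.9 and 507 ± 64.9 CPM in human, squirrel monkey and macaque mice. Nrxn3 passed over any donor group (edgeR adjusted p = 0.0471) but not in the human (-0.21, adjusted p = 0.0587) or squirrel monkey (-0.27, adjusted p = 0.108) comparison with macaque, and it kept the first call in 11 of the 32 fits that left out 1 mouse.

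The list of 17 upper layer genes, markers of layers 2 to 4, had median log2 fold changes of -0.19 for human and -0.35 for squirrel monkey against macaque, with 1 gene higher (Lamp5, 0.49, adjusted p = 0.0131) and 0 lower in the human comparison and 0 called in the other. Lamp5, which also marks interneurons, was not called without batch B, E or F (adjusted p = 0.164, 0.0917 and 0.0635). In the squirrel monkey comparison 11 of the 17 had an unadjusted p under 0.05, against 1667 of all 12651 genes. Its summed level ran from 1180 to 2010 CPM in human, 1200 to 1780 CPM in squirrel monkey and 1560 to 2200 CPM in macaque mice.

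Oligodendrocyte and myelin genes, like the layer 6b genes, had higher means under human and squirrel monkey microbiota. Of the 11 genes, 11 had an unadjusted p under 0.05 for human and 7 for squirrel monkey against macaque (edgeR). Over all 12651 genes, 2918 and 1667 did. All 11 had positive fold changes against macaque, with medians of 1.25 for human and 1 for squirrel monkey; 3 passed in the human comparison (Mog, Mal and Cldn11) and 0 in the squirrel monkey comparison. Their summed level ran from 774 to 10600 CPM in human (median 1360), 899 to 5490 CPM in squirrel monkey (median 2010) and 674 to 3730 CPM in macaque mice (median 1020). With this score as a covariate the Nxph3 difference was 1.13 ± 0.26 for human against macaque (adjusted p = 0.00454) and 1.02 ± 0.29 for squirrel monkey against macaque (adjusted p = 0.144). With the striatal score as a covariate the squirrel monkey difference of Nxph3 was 1.18 ± 0.30 (adjusted p = 0.0681).

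The markers also varied between mice of the same donor group. The coefficient of variation within a group was 14.2% to 23.6% for Etv1, Bcl11b, Tle4 and Tbr1, against 30.3% to 54.6% for Nxph3, 35.7% to 63.5% for Ccn2 and 39.5% to 48.9% for Syt6. Ccn2, Nxph3, Syt6 and Nxph4 were also the members with the fewest counts. Human mouse 8 was the lowest of all 32 mice in Foxp2, Tle4 and Tbr1 and ranked 31 of 32 in Nxph3, Syt6 and Etv1, while its Bcl11b ranked 8 of 32.

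Relations between markers were computed over the 32 mice after removal of the donor group means, with permutation p-values adjusted over 45 pairs. Of these, 14 were positive and passed, 0 were negative and passed, and r ran from -0.333 to 0.656 with a median of 0.211. All but 1 of the pairs that passed fell into a layer 6 set of Tle4, Foxp2, Tbr1, Syt6 and Nxph3, and a second set of Bcl11b, Ccn2 and Nxph4. The exception was Nxph3 with Nxph4 (r = 0.446, permutation p = 0.0145, adjusted p = 0.0465, rho = 0.414, permutation p = 0.0225, adjusted p for rho = 0.0845), but with batch means removed this pair did not pass (r = 0.408, adjusted p = 0.144). Another pair across the sets, Syt6 with Nxph4, did not pass (r = 0.41, adjusted p = 0.0671) but did with batch means removed (r = 0.454, adjusted p = 0.0386). Nxph4 with Tle4 passed in neither (r = 0.432 and 0.367, adjusted p = 0.0557 and 0.166). Fezf2 and Etv1 had no pair that passed. All values of a mouse share its dissection and sequencing depth, whose part in the relations was not tested.

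All 10 pairs of the layer 6 set passed by Pearson's r, between 0.48 and 0.656. By Spearman's rho, Tbr1 with Foxp2, Nxph3 with Foxp2, Syt6 with Foxp2, Syt6 with Tbr1 and Syt6 with Nxph3 did not pass (adjusted p = 0.102, 0.0503, 0.0539, 0.175 and 0.21), and the other 5 pairs did. The relation of Tle4 and Foxp2 had Pearson's r = 0.656 (permutation p = 5e-05, adjusted p = 0.00225) and Spearman's rho = 0.588 (permutation p = 0.0005, adjusted p = 0.0075). It was 0.542 without the 2 mice farthest out and 0.649 with batch means removed. Within donor groups it was 0.669 in human, 0.77 in squirrel monkey and 0.619 in macaque mice. Nxph3 followed Tle4 with r = 0.631 (permutation p = 0.00012, adjusted p = 0.0027) and rho = 0.556 (permutation p = 0.00134, adjusted p = 0.0121). This relation was 0.531 without human mouse 8 and macaque mouse 9. That of Nxph3 and Syt6 (r = 0.48, permutation p = 0.00852, rho = 0.316, permutation p = 0.0888) was 0.179 without these 2 mice, and so rested on them. Without human mouse 8 alone, 8 of the 45 pairs passed.

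**Figure D3:**
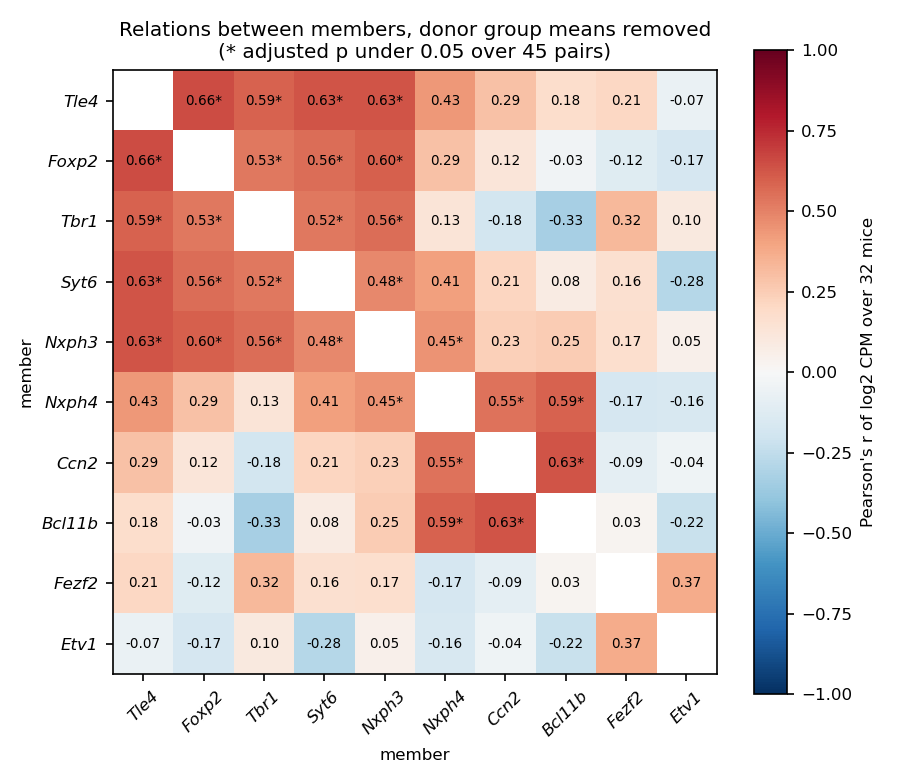
Pearson's r between the log2 CPM of each pair of markers over 32 mice, donor group means removed, with an asterisk for an adjusted p under 0.05 over 45 pairs. Tle4, Foxp2, Tbr1, Syt6 and Nxph3 form a block of positive values between 0.48 and 0.66, and Bcl11b, Ccn2 and Nxph4 form another.

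In the second set Bcl11b and Ccn2 had r = 0.627 (permutation p = 0.00027, adjusted p = 0.00304) and rho = 0.668 (permutation p = 0.00018, adjusted p = 0.0075). It was 0.578 without the 2 mice farthest out and 0.652 with batch means removed. It was 0.778 within human, -0.01 within squirrel monkey and 0.67 within macaque mice. A difference between the groups was not tested. Nxph4 followed Bcl11b with r = 0.586 (permutation p = 0.00083, rho = 0.579, permutation p = 0.00084) and Ccn2 with r = 0.546 (permutation p = 0.00222, rho = 0.552, permutation p = 0.00182), on few counts.

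Relations with markers of other cells were computed as 60 relations of the 10 genes with 6 lists, of which 5 were positive and 4 negative and passed. Bcl11b ran against the upper layer genes, with r = -0.782 (permutation p = 1e-05, the smallest that the permutations can give, adjusted p = 0.0006) and rho = -0.779 (permutation p = 2e-05, adjusted p = 0.0006). The relation was -0.795 without the 2 mice farthest out and -0.783 with batch means removed. It held in human (-0.797), squirrel monkey (-0.692) and macaque (-0.806) mice. Ccn2 ran against them too (r = -0.732, permutation p = 2e-05, rho = -0.76, permutation p = 2e-05, adjusted p = 0.0006 for both), and was -0.725 without the 2 mice farthest out. Nxph4 had r = -0.582 (permutation p = 0.00088, adjusted p = 0.0132) and rho = -0.628 (permutation p = 0.00028, adjusted p = 0.0042). CPM are shares of a library total.

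**Figure D4:**
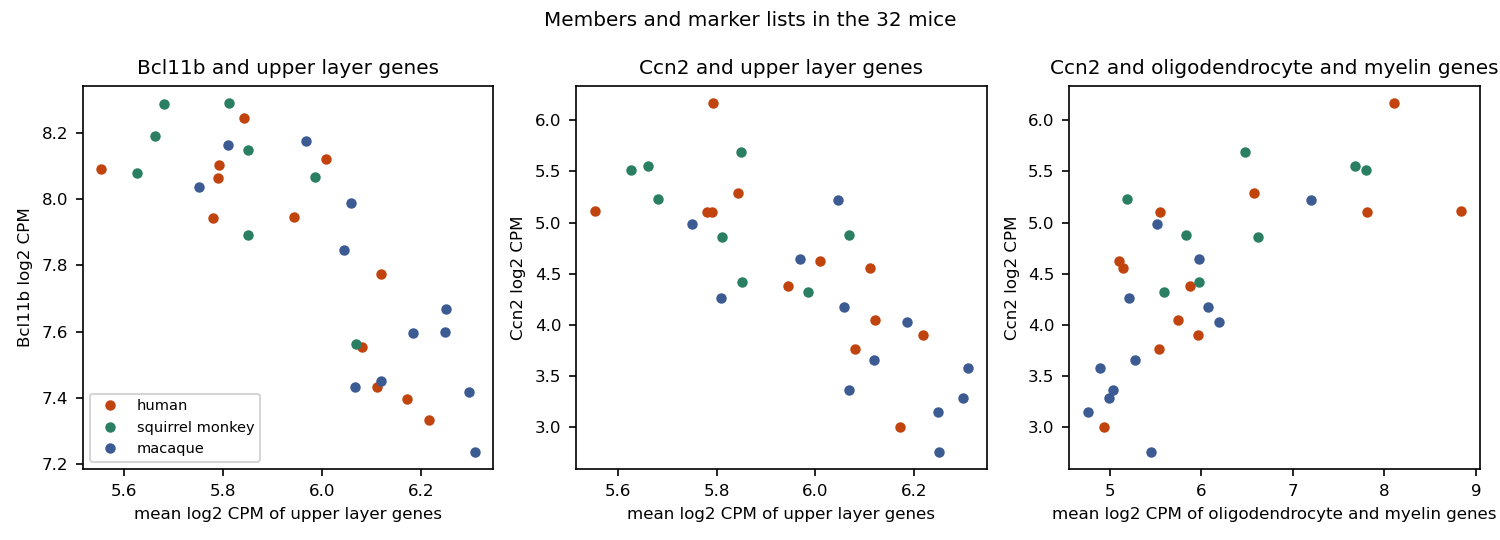
Log2 CPM of Bcl11b and Ccn2 against the mean log2 CPM of upper layer genes, and of Ccn2 against the mean log2 CPM of oligodendrocyte and myelin genes, in 32 mice coloured by donor group. Both markers fall as the upper layer mean rises (r = -0.782 and -0.732 with donor group means removed), and Ccn2 rises with the myelin mean (r = 0.653).

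Ccn2 rose with the myelin score across mice, with r = 0.653 (permutation p = 6e-05, adjusted p = 0.0012) and rho = 0.638 (permutation p = 0.00017, adjusted p = 0.0034). It was 0.612 without human mice 1 and 12, which had the highest myelin sums, and 0.636 with batch means removed. It was 0.681 within human, 0.588 within squirrel monkey and 0.709 within macaque mice. Nxph4 had r = 0.559 (permutation p = 0.00191, adjusted p = 0.0164) and rho = 0.575 (permutation p = 0.00108, adjusted p = 0.013). Nxph3 had r = 0.371 with the same score (permutation p = 0.0468, adjusted p = 0.156) and rho = 0.391 (permutation p = 0.0297, adjusted p = 0.111), and did not pass.

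Ccn2, which meningeal fibroblasts also make, rose with the fibroblast list (r = 0.564, permutation p = 0.0012, adjusted p = 0.0144, rho = 0.526, permutation p = 0.0035), and was 0.433 without human mouse 1 and macaque mouse 6. Tbr1 fell with that list (r = -0.51, permutation p = 0.00326, adjusted p = 0.0237, rho = -0.477, permutation p = 0.00686). The fibroblast sum ran from 61.3 to 242 CPM in human (median 121), 77.2 to 198 CPM in squirrel monkey (median 131) and 59.1 to 245 CPM in macaque mice (median 101). Of its 7 tested genes, 6 had positive fold changes in each comparison with macaque, with medians of 0.40 for human and 0.32 for squirrel monkey. Igf2, an insulin-like growth factor gene, was the 1 gene that passed, at 0.99 for human and 1.47 for squirrel monkey against macaque (edgeR adjusted p = 0.0273 and 0.0132). Its part in the Ccn2 levels was not tested.

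Fezf2 rose with the excitatory neuron list, with r = 0.607 (permutation p = 0.00146, adjusted p = 0.0146) and rho = 0.489 (permutation p = 0.00444, adjusted p = 0.0381), and was 0.367 without human mice 6 and 7. Tbr1 rose with it by Pearson's r (r = 0.502, permutation p = 0.00356, adjusted p = 0.0237), and was 0.414 without these 2 mice. It did not pass by Spearman's rho (rho = 0.424, permutation p = 0.0189, adjusted p = 0.0943) or with batch means removed (r = 0.504, adjusted p = 0.0541). With the striatal list Fezf2 had r = -0.637 (permutation p = 0.0775) and rho = -0.027 (permutation p = 0.879). Its r was 0.257 without human mouse 7, so the negative value rested on that mouse. Tle4 passed with this list by Spearman's rho (rho = 0.45, permutation p = 0.00531, adjusted p = 0.0398) but not by Pearson's r (r = 0.193, adjusted p = 0.598). Without human mouse 7, r with this list ran from -0.216 for Etv1 to 0.637 for Tle4, with 0.598 for Nxph3 and 0.525 for Foxp2.

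The genes whose levels were most like each marker over the 32 mice, by Pearson's r of log2 CPM with donor group means removed among 12635 genes, were named by rank. Those of Fezf2 were Galnt9 (0.899), Ldb2 (0.844) and Rap2a (0.796), and those of Bcl11b were Pcdh7 (0.85), Kirrel3 (0.815) and Cadps2 (0.81). Hs3st4, a heparan sulfate sulfotransferase gene of the layer 6 list, was nearest to Tle4 (0.815) and to Nxph3 (0.706), and stood next to Sulf1 (0.808) for Syt6 (0.715). Those of Tbr1 were Diras2 (0.807), Vxn (0.791) and Lrrtm2 (0.783). Foxp2 was nearest to Sema5a (0.716), Ccn2 to Id2 (0.813) and Etv1 to Rps6kb2 (0.743). Ldb2, Hs3st4 and Sulf1 belong to the layer lists, and all values are descriptions with no test.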

How the data were processed

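Frontal cortex RNA of 32 mice was sequenced by TagSeq, which reads tags near the 3′ end of transcripts, with single-end reads, as the labels' protocols state. The authors deposited 1 table of whole-number counts per Ensembl gene (23958 rows), and 3 of its columns match no sample here and were not used. The genome build is GRCm39, per the submitters' processing notes. Aligner, counter, annotation, strand use and duplicate handling were not given in the sources used here.

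Ensembl identifiers were matched to symbols, and 76 rows had none. GENCODE M21, of another build, served for overlaps and for copies of transcript ends. No member's last 300 bases were shared with another gene (at least 100 bases at 95% identity), and 0 pairs of libraries were identical. Total counts were 1035036 to 2089308 per mouse (median 1534710).

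Counts were fitted in edgeR 4.0.16 (R 4.3.3) by the quasi-likelihood F-test with donor group as the only term over all 32 mice. Scaling was by TMM (0.955 to 1.04). The filter (filterByExpr, minimum count 10, minimum total 15, thus 6.52 CPM in 8 mice) left 12651 genes. Benjamini-Hochberg adjustment ran over these genes, with a threshold of 0.05. Batches of a donor were compared in a fit on the 6 batches. Relations between mice used log2 CPM (prior count 2) with donor means removed and 100000 permutations within donor groups. A list's score is the mean log2 CPM of its genes that passed the filter, and its sum covers all its genes in the table. Alternatives used limma 3.58.1, DESeq2 1.42.0, other scalings, filters and covariates, and mice or batches left out. The fit and the relations were tested on simulated data.

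The members, lists and tests were chosen with earlier results of these data known. Named were all 10 members, up to 4 genes a list by the smallest p over any donor group, and up to 3 nearest genes a member. Replicate numbers follow the order of the samples and pair no mice.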

Additional observations from a re-analysis of the deposited data

How the results depend on the processing

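Over the 9 tested members and 3 donor comparisons, 1427 alternative values were computed: 1366 kept direction and side of the threshold, 20 lost a call, 14 gained one and 27 changed sign. Most of these values had no call to lose, and every lost call was one of Nxph3. Its human call was lost in 1 of 6 fits without a batch. Its squirrel monkey call was lost in 13 of 32 fits without 1 mouse, 3 of 6 without a batch and 3 of 15 other alternatives. Of 158 batch values 156 kept both and 2 changed sign. Alternatives without human mice 7 and 12, the rank correlations, the removal of batch means and the relations without single mice were chosen after seeing the data. Without human mice 7 and 12 Nxph3 kept both calls (1.35 and 1.21, adjusted p = 0.0011 and 0.0327).

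Members called for human against macaque (1) became 3 with counts summed per batch, 2 without batch B or with the library total as a covariate, 0 without batch F, and 1 to 2 with any 1 mouse left out. For squirrel monkey against macaque (1) they became 2 with voom sample weights, without batch B or with only the 2 groups, 3 with summed counts, and 0 with voom and a batch block, without batch C, E or F, or with the myelin or striatal score as a covariate; with any 1 mouse left out they were 0 to 2. With the batch block Nxph3 had 1.31 (adjusted p = 0.0802). The members gained were Ccn2 and Fezf2 for human, and Ccn2 and Bcl11b for squirrel monkey, each against macaque. For any donor group (1) they became 2 with library totals, without batch B or with the library total as a covariate, 4 with summed counts, 0 without batch F, and 1 to 2 with any 1 mouse left out. Ccn2 was gained in each of these settings, and with summed counts Fezf2 and Bcl11b also passed over any donor group (adjusted p = 0.0102 and 0.0202). Between human and squirrel monkey the count was 0 in every setting run. Of 45 pairs (14 called), Spearman called 8, and leaving out 1 mouse gave 8 (without human mouse 8) to 16. The cause was not tested.

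Signs changed in differences that did not pass. For human against macaque these were Syt6 without batch B (-0.03), Tle4 with the myelin score (-0.03) and Foxp2 with the striatal score (-0.01). For squirrel monkey against macaque they were Tbr1 without batch D (0.07) or macaque mouse 11 (0.01; -0.16 to 0.01 with any 1 mouse left out) and Etv1 without batch F (-0.01). For human against squirrel monkey Syt6 was 0.00 with voom and a batch block, -0.07 with fixed batches, -0.05 with summed counts, -0.31 without batch B, -0.09 without batch D, -0.03 with the striatal score and -0.11 without human mice 7 and 12, and -0.10 to 0.15 with any 1 mouse left out. In that comparison Nxph3 was -0.15 without batch A, -0.14 without batch D and 0.00 to 0.20 with any 1 mouse left out, Foxp2 0.03 and Ccn2 0.02 without batch B, Tbr1 -0.02 and Cplx3 -0.07 without batch D, and Lamp5 -0.08 without batch B and -0.01 to 0.10 with any 1 mouse left out. Bcl11b between A and B was 0.03 with library totals and 0.06 with voom.

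Calls over all genes for human against macaque (1013) were 506 with summed counts, 479, 392 and 336 without batches A, E and F, 495 with the striatal score and 574 with the library total. For squirrel monkey against macaque (81) they were 156 with DESeq2, 292 with voom, 44 with a batch block, 203 with summed counts, 144, 2, 11 and 0 without batches B, C, E and F, 25 and 52 with the myelin and striatal scores, 178 with only the 2 groups, 133 without human mice 7 and 12, and 24 to 137 without 1 mouse. For human against squirrel monkey (17) they were between 1 and 97. For any donor group (778) they were 420 with summed counts, 381, 272 and 231 without batches A, E and F, 338 with the striatal score and 415 with the library total. Between A and B (3) they were 0 with library totals, 6 unfiltered and 10 with DESeq2. With library totals 67.7% of human against macaque calls were higher, against 55.8%.

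No paired analysis was possible because the labels give no replicate numbers shared between groups. Nxph4, Nxph3, Syt6 and Ccn2 had the fewest counts of the members; how depth limits each was not measured.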
